A study of Mus musculus with 16 samples.

Results

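Transcript levels of 10 genes of death receptor signalling were followed in mouse embryonic fibroblasts, wild-type or CHOP knockout, with and without proteasome inhibition. The 10 genes were taken from a fixed list that was chosen with earlier results of these data known. Counts of members set against shares of all probe sets are therefore descriptions. Every probe set of the array that names 1 of the 10 genes alone was used. That gave 21 of 45101 probe sets, for 10 of the 18193 genes with such a probe set. 20 of the 21 lay above the median of their array on at least 4 of 16 arrays and entered the tests, and only 1 of 5 Cflar probe sets did not. Death receptors were Tnfrsf10b, Fas, Tnfrsf1a and Tnfrsf21, decoy receptors were Tnfrsf11b, Tnfrsf22 and Tnfrsf23, and receptors without a death domain were Tnfrsf1b and Tnfrsf12a. Cflar, an inhibitor of signalling from death receptors, completed the set.

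The arrays formed 4 groups of 4 plates. Both genotypes, CHOP+/+ (wild-type) and CHOP-/- (knockout), were either left unstressed or exposed to 1 µM MG132, which blocks the proteasome, for 8 hours. Labels of the unstressed groups disagree on whether the cells received the solvent DMSO, and these groups are called untreated here. The labels do not say whether plates came from separate embryos, whether the genotypes came from littermates, or whether a genotype is 1 clone, so p-values measure only the spread between plates. The title of the series gives its purpose as a search for genes that need CHOP for their response to proteasome inhibition.

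Receptors of the TNF receptor superfamily bind trimeric ligands at the cell surface. Those with an intracellular death domain recruit adaptors such as FADD and TRADD and can activate caspase-8, while receptors without one signal through TRAF adaptors. Decoy receptors bind ligand without passing on a death signal, and cFLIP, the product of Cflar, competes with caspase-8 at the receptor complex. CHOP, encoded by Ddit3, is a stress-induced transcription factor of the C/EBP family, and the TRAIL receptor DR5, the product of TNFRSF10B, is known in human cells as one of its targets.

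Sequence upstream of the start of the gene is shown for a decoy receptor whose response differed between genotypes, and for Fas and Cflar, for which no difference between the responses was called. 7 of the 10 members had an entry in the RefSeq promoter table (GRCm38.p6), and Tnfrsf10b, Tnfrsf11b and Tnfrsf22 did not. The 250 bases before the start were searched on both strands for TGCAAT (a core of CHOP and C/EBP sites), TGACGT (a core of ATF and CREB sites), TGANTCA (an AP-1 site) and GAANNTTC (a core of heat shock elements). Capitals mark the matches. The windows are chr7:143685876-143686125 on the minus strand for Tnfrsf23, chr19:34290409-34290658 on the plus strand for Fas and chr1:58711241-58711490 on the plus strand for Cflar.
Tnfrsf23: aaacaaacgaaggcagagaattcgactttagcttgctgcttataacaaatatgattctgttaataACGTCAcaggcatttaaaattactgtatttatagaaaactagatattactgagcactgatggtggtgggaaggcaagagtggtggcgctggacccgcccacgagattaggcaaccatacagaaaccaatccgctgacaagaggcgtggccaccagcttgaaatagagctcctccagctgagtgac
Fas: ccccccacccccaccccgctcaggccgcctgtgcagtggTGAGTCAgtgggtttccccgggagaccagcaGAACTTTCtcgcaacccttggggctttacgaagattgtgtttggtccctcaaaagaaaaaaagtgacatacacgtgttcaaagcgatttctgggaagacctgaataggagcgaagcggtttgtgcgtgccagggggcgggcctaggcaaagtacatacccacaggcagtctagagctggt
Cflar: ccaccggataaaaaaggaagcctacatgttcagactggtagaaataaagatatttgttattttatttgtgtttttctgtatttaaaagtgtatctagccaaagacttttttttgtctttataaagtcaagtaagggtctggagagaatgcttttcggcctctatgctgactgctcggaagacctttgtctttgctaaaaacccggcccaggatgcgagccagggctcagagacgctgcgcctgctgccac

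The window of Tnfrsf23 held TGACGT on the reverse strand, printed as ACGTCA, 185 bases before the start. That of Fas held the AP-1 site TGAGTCA 211 bases and the heat shock core GAACTTTC 180 bases before the start. Neither motif overlapped the other. Cflar, Tnfrsf1a, Tnfrsf21, Tnfrsf1b and Tnfrsf12a held no match to any of the 4 motifs, and TGCAAT was found in none of the 7 windows. Among 32851 mouse promoters cut to the same 250 bases, 7.32% held TGCAAT, 6.47% TGACGT, 6.75% TGANTCA and 6.69% GAANNTTC. A match is a description of the letters and not of binding.

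Within groups, log2 signals of pairs of arrays correlated at 0.981 to 0.990. Ddit3, the targeted gene, had mean signals of 1017 ± 101 (SD, n = 4) without and 7724 ± 587 with the inhibitor in wild-type cells, against 368 ± 24.0 and 396 ± 38.9 in the knockout. Its log2 change was 2.91 (SE 0.09) in wild-type cells and 0.10 (SE 0.09, limma adjusted p = 0.35) in the knockout, although the latter passed under quantile normalisation (0.25, adjusted p = 0.022). Whether this probe set falls within the deleted sequence is unknown here. All 10 fibroblast markers measured lay above the array median on every array of the wild-type groups and the treated knockout, and 9 did so in the untreated knockout. Their summed signal ran from 136935 to 182878 in wild-type cells, from 153155 to 168649 in the untreated knockout and from 113363 to 119300 in the treated knockout. Of 8 leukocyte markers 7 were measured and 2 passed the filter, with a summed signal from 376 to 528 on untreated and from 540 to 763 on treated arrays, and Ptprc, Itgam, Cd3e, Cd79a and Lyz2 lay under the filter. Cd68 rose by 0.63 (limma adjusted p = 0.0068) in wild-type cells and gave -0.02 (adjusted p = 0.93) in the knockout. It was lower in the treated knockout at -0.78 (adjusted p = 0.0015). Csf1r rose by 0.47 (adjusted p = 0.013) in wild-type and 0.52 (adjusted p = 0.0079) in knockout cells. Of 4 endothelial markers only Kdr passed the filter, with means of 64, 76, 44 and 181 (wild-type and then knockout, untreated first), while Pecam1, Cdh5 and Tek did not pass it. All means of Kdr but that of the treated knockout lay below the array medians of their groups. Its fitted rise in the knockout, 1.86 (limma adjusted p = 0.00089), therefore rests on background signal. So does its difference from wild-type cells, 1.82 (adjusted p = 0.032). Of 4 epithelial markers 2 passed, Krt8 rising by 0.90 (adjusted p = 0.0033) and 0.58 (adjusted p = 0.049) in wild-type and knockout cells from means of 45 and 81, both below the array medians, and Epcam with no call in any comparison. The upper quartile of the signals averaged 833 with and 896 without MG132 on wild-type arrays, against 800 and 871 on knockout arrays (exact permutation p = 0.0286 for either genotype, the smallest this design allows, adjusted p = 0.0914). Between the treated genotypes, 800 in the knockout against 833 in wild-type cells had the same exact permutation and adjusted p. The ratio of 3' to 5' signal of Actb, a sign of RNA quality, averaged 1.23 with and 1.16 without MG132 on wild-type arrays and 1.21 and 1.15 on knockout arrays, with the same exact permutation and adjusted p. The part of these differences in the results was not tested. Fewer expressing cells and less RNA per cell cannot be told apart in such samples.

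In wild-type cells MG132 raised the decoy receptors and most death receptors and lowered Cflar. Of the 20 tested probe sets 17 were called, against 56.4% of all 24749 tested, with 11 rising and 6 falling against 26.4% and 30.0% of all. Treated and untreated arrays did not overlap for 17 of the members' probe sets, against 49.9% of all. The 6 probe sets of decoy receptors all rose, with a median log2 change of 3.16, and 5 of 6 of death receptors rose, with a median of 0.97. Of the 4 probe sets of receptors without a death domain 1 fell, and the 4 tested probe sets of Cflar fell with a median of -1.02. The median of all probe sets tested was -0.02. In the knockout 14 of the 20 were called, against 53.9% of all, with 8 rising and 6 falling against 22.8% and 31.1%. Arrays did not overlap for 12, against 51.1%. The knockout had medians of 1.41 for the decoy receptors, 0.58 for the death receptors and -0.74 for Cflar beside -0.06 for all probe sets. The 6 falling probe sets include Tnfrsf11b 1449033_at, and the decoy median takes in both Tnfrsf11b probe sets. These lay at background in the knockout and passed the filter through wild-type arrays alone. Changes here are differences of log2(signal + 16), and rose, fell, higher or lower refer to limma's test with a Benjamini-Hochberg adjusted p under the threshold over all probe sets tested.

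Knockout and wild-type responses to MG132 differed for 8 of the 20 probe sets, against 22.8% of all, 7 of them lower and 1 higher in the knockout against 12.5% and 10.3% of all. They belong to Tnfrsf10b, Tnfrsf22, Tnfrsf23, Tnfrsf11b and Tnfrsf1a. The 7 include Tnfrsf11b 1449033_at, which passed the filter through its wild-type arrays alone and lay at background in the knockout. Under median centring the share of higher calls among all calls of this comparison moved from 45.2% to 63.3%, while the members gave the same 1 higher and 7 lower.

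Tnfrsf10b encodes the mouse TRAIL receptor with a death domain, the counterpart of human DR5. Its lead probe set (the one with the highest mean signal), 1422344_s_at, gave 486, 472, 440 and 517 in wild-type cells without and 1742, 1697, 1747 and 1663 with MG132. In the knockout it gave 421, 407, 413 and 380 without and 672, 635, 618 and 638 with MG132. All treated arrays lay above the untreated ones of their genotype, and the treated knockout arrays lay below every treated wild-type array. The log2 change was 1.81 (SE 0.07, limma adjusted p = 7.2e-14) or 3.5-fold in wild-type cells and 0.64 (SE 0.07, adjusted p = 2.6e-07) or 1.56-fold in the knockout. The difference between the responses was -1.17 (SE 0.10, adjusted p = 1.1e-07).

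A separate Tnfrsf10b probe set, 1421296_at, showed the same order with a smaller gap. It gave 338, 364, 451 and 341 without and 1095, 926, 1084 and 974 with the inhibitor in wild-type plates, and 289, 267, 307 and 221 followed by 458, 477, 487 and 488 in the knockout. Its log2 change was 1.42 (SE 0.11) in wild-type and 0.79 (SE 0.11) in knockout cells, a difference of -0.62 between genotypes (SE 0.16, adjusted p = 0.0067). The suffix of the first probe set marks probes that can match related transcripts.

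Tnfrsf22 and Tnfrsf23, which encode mouse TRAIL decoy receptors without a death domain, rose more than any other member in wild-type cells. The genes are neighbours on chromosome 7, between Tnfrsf26 and Osbpl5, and their sequences are closely related, so signal from 1 can reach the probes of the other. Tnfrsf22 probe set 1426095_a_at gave 387, 519, 480 and 512 without and 4142, 4499, 4410 and 4075 with the inhibitor in wild-type cells. In the knockout it gave 427, 421, 428 and 462 without and 1478, 1292, 1285 and 1345 with MG132. Untreated arrays of both genotypes thus overlapped, and treated knockout arrays lay between them and the treated wild-type arrays. In log2 terms the change was 3.14 (SE 0.08, adjusted p = 1.8e-16) or 8.81-fold in wild-type and 1.60 (SE 0.08, adjusted p = 5.4e-12) or 3.03-fold in knockout cells, a difference of -1.54 (SE 0.12, adjusted p = 2.1e-08).

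The other Tnfrsf22 probe sets gave the same picture. On 1422038_a_at untreated wild-type arrays ranged from 153 to 343 and treated ones from 2547 to 2659, and knockout arrays from 197 to 241 and from 551 to 671. On 1422039_at the ranges were 179 to 287 and 2147 to 2559 in wild-type, and 193 to 235 and 676 to 828 in knockout cells. The log2 changes were 3.29 (SE 0.16) and 3.17 (SE 0.12) in wild-type cells and 1.36 (SE 0.16) and 1.73 (SE 0.12) in the knockout. Responses differed by -1.93 (SE 0.22, adjusted p = 4.6e-06) and -1.44 (SE 0.17, adjusted p = 7.9e-06).

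Tnfrsf23 had 1 probe set of its own, 1422101_at. It gave 212, 681, 699 and 573 without and 4707, 4746, 4814 and 4386 with the inhibitor in wild-type cells. The knockout gave 489, 463, 548 and 452, then 1525, 1409, 1200 and 1334 with MG132. Replicate 1 of untreated wild-type cells was low for this gene and for all 3 probe sets of Tnfrsf22. The log2 change was 3.20 (SE 0.23, adjusted p = 5.2e-10) or 9.19-fold in wild-type and 1.45 (SE 0.23, adjusted p = 2.4e-05) or 2.74-fold in knockout cells, a difference of -1.75 (SE 0.33, adjusted p = 7e-04). Leaving out each array in turn gave wild-type changes of 2.81 to 3.36 and differences of -1.91 to -1.36. A rise of at least 8-fold in wild-type cells was seen for 56 of all 24749 probe sets, or 0.226%, and the 4 probe sets of both genes are among them.

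**Figure D1:**
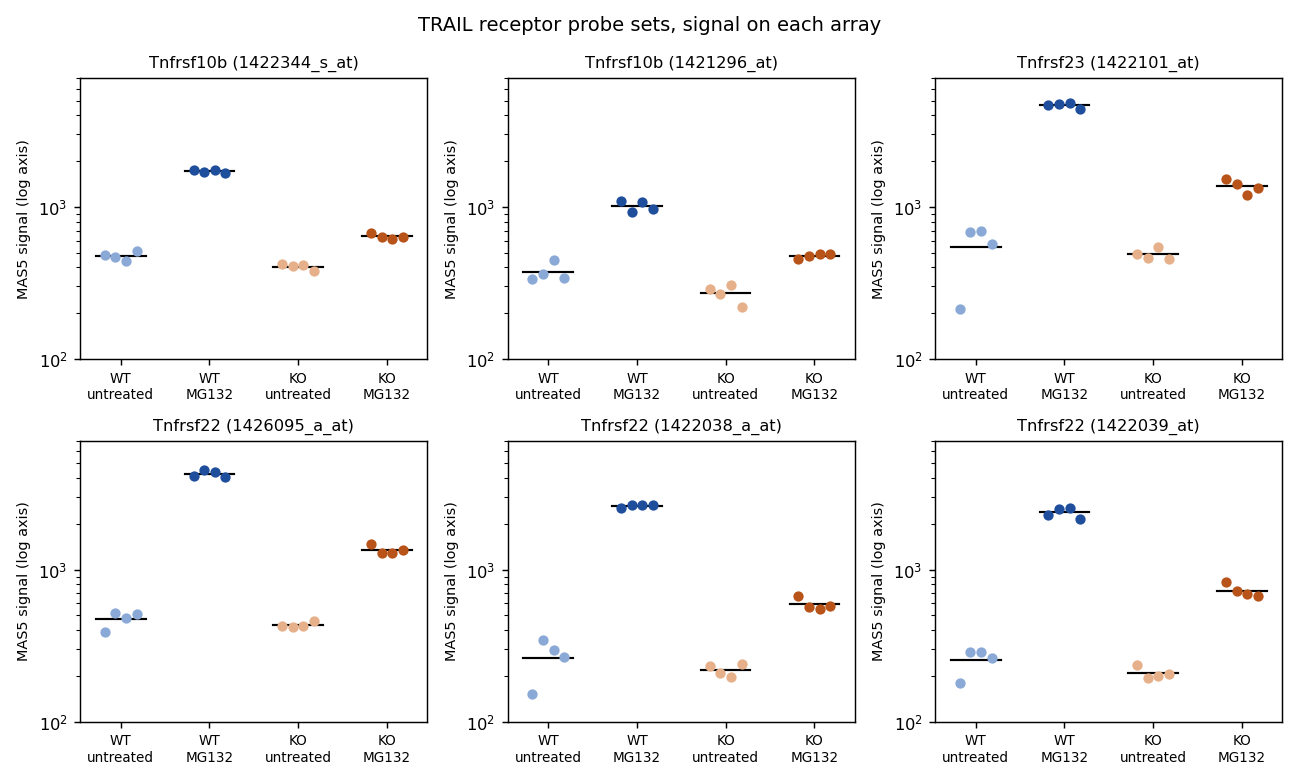
Signals of the probe sets of Tnfrsf10b, Tnfrsf22 and Tnfrsf23 on every array, by group, on a log axis, with points for arrays and lines for group means. Treated knockout arrays lie between the untreated arrays and the treated wild-type arrays on every probe set shown.

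Tnfrsf22 and Tnfrsf23 rose more than Tnfrsf10b on the same arrays. Tnfrsf11b, whose product is also a decoy for TRAIL, was not part of this comparison. Its probe sets rose by 1.27 and 1.60 in wild-type cells, against 1.81 and 1.42 for those of Tnfrsf10b. The log2 signal of Tnfrsf22 minus that of Tnfrsf10b, set to 0 for the mean of untreated wild-type cells, ran from -0.30 to 0.15 on their arrays and from 1.26 to 1.42 on treated wild-type arrays. In the knockout this difference ran from 0.04 to 0.29 untreated and from 1.02 to 1.14 with MG132. For Tnfrsf23 minus Tnfrsf10b it averaged 1.39 ± 0.04 (SD, n = 4) in treated wild-type and 1.03 ± 0.10 in treated knockout cells, against 0.21 ± 0.10 in untreated knockout cells and an SD of 0.81 in untreated wild-type cells. These are differences in change and say nothing of which transcript is more abundant.

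Tnfrsf11b encodes osteoprotegerin, a secreted decoy for RANKL and TRAIL, and lay above the array median in wild-type cells only. Probe set 1449033_at gave 1760, 1460, 1259 and 1468 without and 3492, 3311, 3671 and 3829 with the inhibitor in wild-type cells. In the knockout it gave 23, 6, 20 and 6 without and 1, 3, 9 and 0 with MG132, far below the array medians of 90.5 to 103. Taking the knockout at its array medians, the wild-type signal was at least 15.1-fold higher untreated and at least 37.8-fold higher with MG132. In wild-type cells the log2 change with MG132 was 1.27 (SE 0.19, adjusted p = 1.3e-05). Since the gene passed the filter through its wild-type arrays alone, its genotype calls followed from that choice.

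Fitted values of Tnfrsf11b in the knockout rest on background signal. The fitted change of 1449033_at there was -0.60 (SE 0.19, adjusted p = 0.013), with overlapping arrays. It was lost with 64 added to the signals (-0.20, adjusted p = 0.12) and without replicate 1 of untreated knockout cells (-0.45, adjusted p = 0.057). The difference between the responses, -1.86 (SE 0.27, adjusted p = 6.4e-05), became -3.26 with 1 and -1.44 with 64 added. The gene's other probe set, 1418309_at, ranged from 453 to 678 and from 1639 to 2100 in wild-type cells, and its log2 change was 1.60 (SE 0.37, adjusted p = 0.0011). Its knockout arrays all lay at or below 80, and its responses differed by -1.31 (SE 0.53, adjusted p = 0.083).

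Fas, the receptor for Fas ligand, rose in both genotypes. Its probe set 1460251_at gave 281, 222, 258 and 127 without and 499, 455, 348 and 527 with the inhibitor in wild-type plates, and 280, 215, 154 and 193 followed by 391, 671, 584 and 648 in the knockout. Treated arrays lay above untreated ones in each genotype, and the genotypes overlapped at either treatment. The log2 change was 1.03 (SE 0.22, adjusted p = 5e-04) in wild-type and 1.38 (SE 0.22, adjusted p = 2.4e-05) in knockout cells. The responses differed by 0.35 (95% confidence interval -0.30 to 1.00, adjusted p = 0.47), so a difference of up to 1.00 is within the interval.

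Tnfrsf21 encodes death receptor 6. Probe set 1450731_s_at gave 184, 126, 123 and 160 without and 295, 266, 346 and 262 with the inhibitor in wild-type plates, and 161, 209, 163 and 184 followed by 221, 285, 237 and 311 in the knockout. Treated arrays lay above untreated ones in both genotypes, with log2 changes of 0.92 (SE 0.16, adjusted p = 4.7e-05) and 0.52 (SE 0.16, adjusted p = 0.0088). The difference of -0.40 (95% confidence interval -0.86 to 0.06, adjusted p = 0.21) did not pass. Probe set 1422740_at rose in wild-type cells by 0.52 (adjusted p = 0.0087) and gave 0.19 (adjusted p = 0.32) in the knockout.

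Tnfrsf1a, the TNF receptor with a death domain, was the death receptor that fell. Probe set 1417291_at gave 3791, 4387, 4093 and 4367 without and 2896, 2844, 2685 and 2942 with the inhibitor in wild-type cells, which did not overlap. The knockout gave 3157, 3726, 3173 and 3528 without and 2833, 3636, 3192 and 3257 with MG132, which did. The log2 change was -0.55 (SE 0.07, adjusted p = 2.5e-06) in wild-type cells and -0.07 (SE 0.07, adjusted p = 0.42) in the knockout. The responses differed by 0.47 (SE 0.10, adjusted p = 0.0024).

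Tnfrsf1b encodes the TNF receptor without a death domain, and its probe sets disagreed. Probe set 1418099_at gave 846, 575, 577 and 624 without and 440, 346, 380 and 423 with the inhibitor in wild-type plates, and 303, 305, 324 and 287 followed by 145, 185, 233 and 187 in the knockout. The groups did not overlap within a genotype, and the changes were -0.69 (SE 0.14, adjusted p = 3e-04) and -0.67 (SE 0.14, adjusted p = 4e-04). Their difference was 0.01 (95% confidence interval -0.40 to 0.43). Probe set 1448951_at changed by -0.02 in wild-type and 0.14 in knockout cells and passed in no comparison.

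Tnfrsf12a encodes Fn14, the receptor for the ligand TWEAK. Probe set 1418571_at gave 11291, 13965, 14368 and 14396 without and 14115, 12566, 15631 and 14114 with the inhibitor in wild-type cells. In the knockout it gave 16479, 17798, 17996 and 18105 without and 17456, 15571, 15429 and 17873 with MG132. Treated and untreated arrays overlapped in both genotypes, while the knockout arrays lay above the wild-type arrays when untreated. Log2 changes were 0.07 (adjusted p = 0.49) in wild-type and -0.09 (adjusted p = 0.36) in knockout cells. The knockout change passed under quantile normalisation (-0.20, adjusted p = 0.023), as did that of 1418572_x_at (-0.21, adjusted p = 0.0056).

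Cflar fell with MG132 in both genotypes. Its lead probe set, 1424996_at, gave 1346, 1087, 922 and 1113 without and 537, 548, 559 and 490 with the inhibitor in wild-type plates, and 695, 655, 609 and 810 followed by 346, 357, 398 and 358 in the knockout. Treated arrays lay below untreated ones in each genotype, and knockout arrays lay below wild-type ones at either treatment. Log2 changes were -1.03 (SE 0.11, adjusted p = 8.1e-08) in wild-type and -0.89 (SE 0.11, adjusted p = 7e-07) in knockout cells. The difference of 0.14 (95% confidence interval -0.17 to 0.46, adjusted p = 0.55) did not pass.

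The other Cflar probe sets also fell in wild-type cells, with changes of -0.76, -1.10 and -1.01 on 1425686_at, 1449317_at and 1425687_at. In the knockout they gave -0.59, -1.18 and -0.52, the last with adjusted p = 0.046, which rose to 0.06 under quantile normalisation and to 0.15 without replicate 1 of treated knockout cells. The untested probe set 1453482_at averaged 114, 42.4, 72.7 and 26.0 in the wild-type and then the knockout groups, untreated first, and without the filter its change was -1.11 (adjusted p = 0.014) and -1.17 (adjusted p = 0.01).

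**Figure D2:**
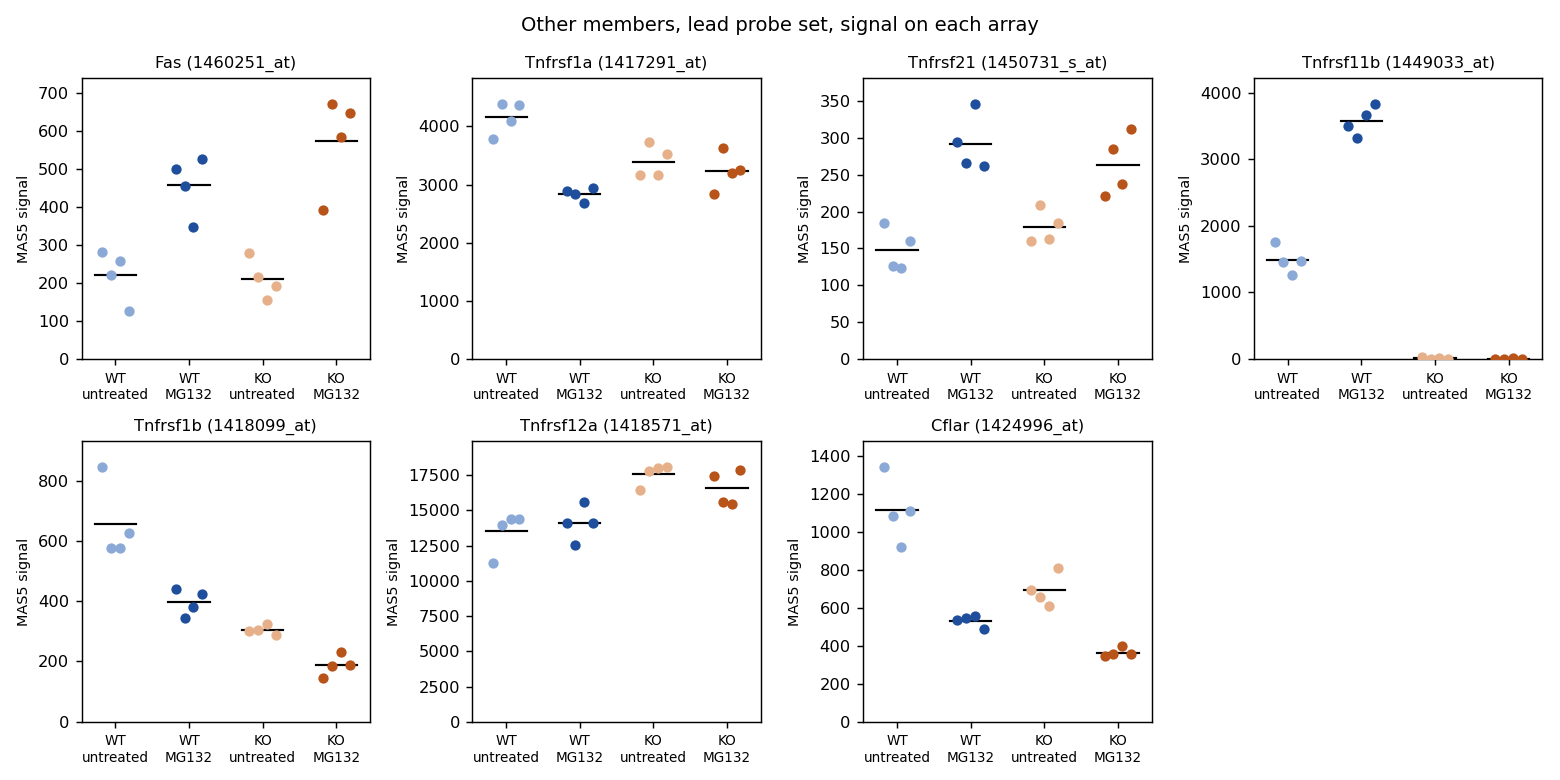
Signals on every array, by group, on a linear axis from 0, for the lead probe set of each of the other members, with points for arrays and lines for group means. Tnfrsf11b lies near 0 in the knockout, Fas and Tnfrsf21 lie higher and Cflar and Tnfrsf1b lower with MG132 in both genotypes, and Tnfrsf1a falls in wild-type cells.

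**Figure D3:**
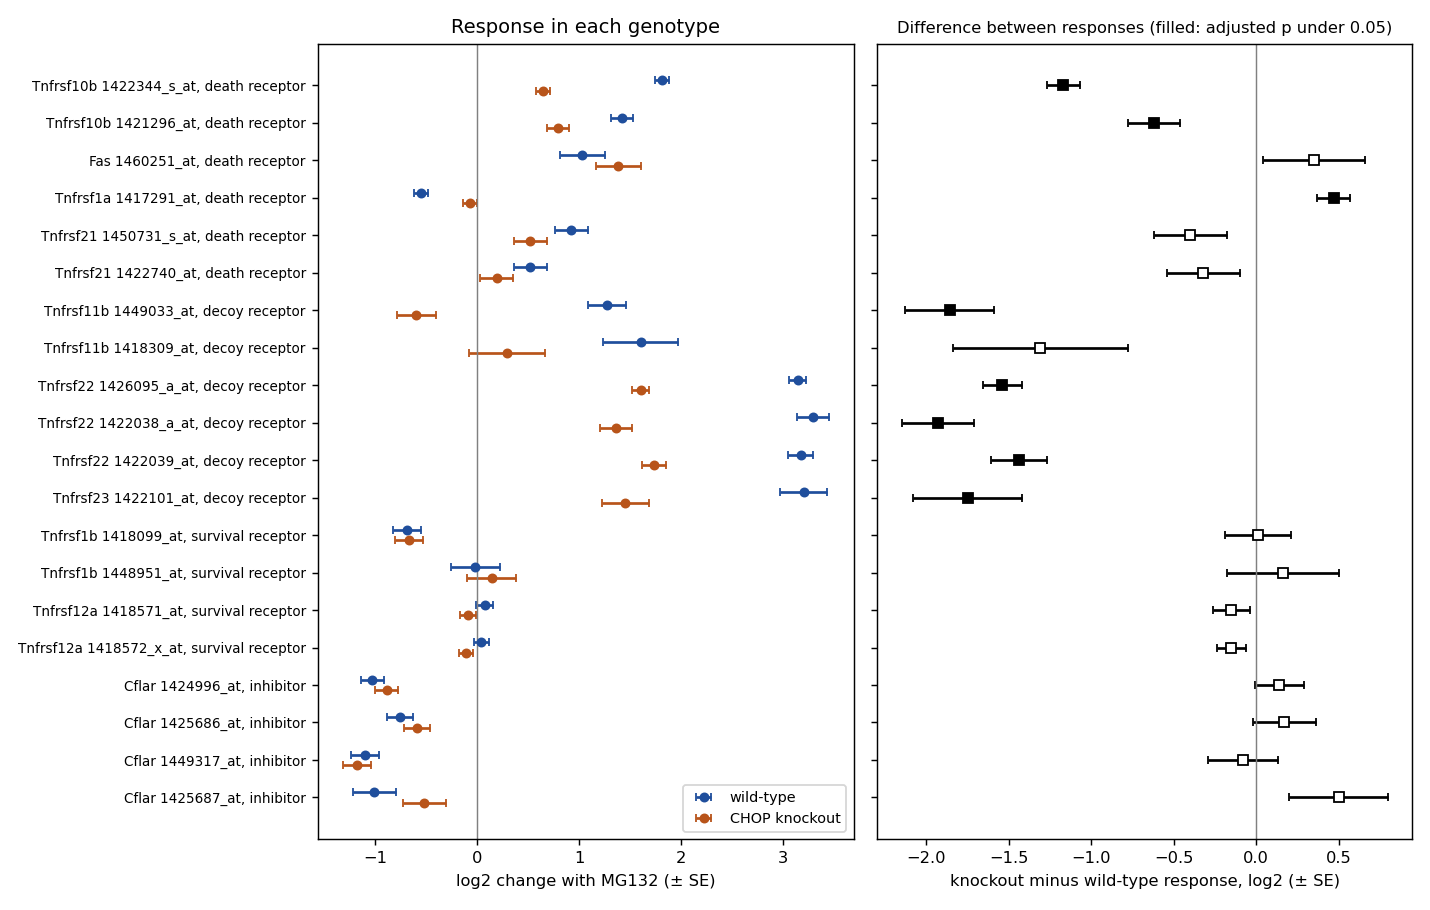
Log2 change with MG132 in each genotype (left) and knockout minus wild-type response (right) for the 20 tested member probe sets, with bars of 1 SE and filled squares where the difference passed. The filled squares are those of Tnfrsf10b, Tnfrsf22 and Tnfrsf23, 1 of 2 probe sets of Tnfrsf11b, and Tnfrsf1a, and Tnfrsf1a alone lies above 0.

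Without MG132 the share of member probe sets called between the genotypes was near the background. Of the 20 probe sets 10 were called, against 47.6% of all, and arrays did not overlap for 11, against 42.9%. The counts between genotypes, here and with MG132, include both Tnfrsf11b probe sets. In the knockout 2 were higher and 8 lower, against 24.3% and 23.3% of all, and those higher were both of Tnfrsf12a, at 0.39 (adjusted p = 3e-04) and 0.44 (adjusted p = 2e-05). Lower ones included Tnfrsf1b 1418099_at at -1.05 (adjusted p = 3.6e-06), Cflar 1424996_at at -0.67 (adjusted p = 2.9e-05), Tnfrsf1a at -0.29 (adjusted p = 0.0025) and Tnfrsf10b 1421296_at at -0.44 (adjusted p = 0.0026). Tnfrsf10b 1422344_s_at was lower at -0.23 (adjusted p = 0.012), a call lost under median centring (adjusted p = 0.073) and when only these 2 groups were fitted (adjusted p = 0.068). Tnfrsf22 at -0.11 and Tnfrsf23 at -0.02 did not pass. Without replicate 1 of untreated wild-type cells, however, all 3 Tnfrsf22 probe sets (-0.21, -0.43 and -0.39) and Tnfrsf23 (-0.40, adjusted p = 0.00089) were lower in the knockout, and the count of calls rose from 10 to 14. Fibroblast markers also differed between the untreated genotypes. Pdgfra averaged 2351 in wild-type and 118 in knockout cells, and Thy1 227 and 2727, and their part in these differences was not tested.

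With MG132 the TRAIL receptors separated the genotypes most widely among members that were above background in both. Of the 20 probe sets 14 were called, against 52.7% of all, with 3 higher and 11 lower in the knockout against 25.0% and 27.8%. Arrays did not overlap for 11, against 49.0%. Tnfrsf10b was lower at -1.40 and -1.07, Tnfrsf22 at -1.65, -2.13 and -1.69, and Tnfrsf23 at -1.76 (adjusted p = 2.6e-06). Tnfrsf1b 1418099_at at -1.03 and Cflar 1424996_at at -0.53 (adjusted p = 0.00033) were lower as well, as they were untreated. Cflar 1425686_at was lower untreated at -0.57 and treated at -0.40 (adjusted p = 0.015), the treated call being lost under median centring (adjusted p = 0.065). Cflar 1449317_at and 1425687_at passed at neither treatment. Both Tnfrsf12a probe sets were higher, at 0.23 (adjusted p = 0.015) and 0.28 (adjusted p = 0.0015), but the former call was lost without replicate 2 of treated wild-type cells (0.18, adjusted p = 0.064) or replicate 4 of treated knockout cells (0.20, adjusted p = 0.054). Tnfrsf1a at 0.18 (adjusted p = 0.046) had overlapping groups, and leaving out single arrays gave adjusted p up to 0.18. Without either of the arrays named for Tnfrsf12a the count of higher probe sets was 1 in place of 3. Fas gave 0.30 (adjusted p = 0.26) and did not pass. Under median centring the share of higher calls among all calls moved from 47.3% to 59.1%.

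Genes acting with the receptors were read from lists of ligands, adaptors, caspases, inhibitors and other receptors. None of the 7 ligand genes measured passed the filter. Tnfsf10, which encodes TRAIL, averaged 42.3, 24.5, 43.7 and 37.1 in untreated and treated wild-type and then knockout cells, Fasl 44.1, 34.7, 40.8 and 38.1, and Tnf 30.5, 19.7, 13.2 and 12.9. All of these lie below the array medians, so no change in ligand transcripts could be read from these arrays.

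Of 15 adaptors and kinases tested, 8 rose and 4 fell in wild-type and 10 rose and 2 fell in knockout cells. The shares of all probe sets, for this and the following lists, were 26.4% higher and 30.0% lower in wild-type and 22.8% and 31.1% in knockout cells. Mlkl, the pore-forming effector of necroptosis, rose by 1.04 and 1.09 (SE 0.06 each), the TRAF adaptor genes Traf6 by 1.27 and 1.07 (SE 0.14 each) and Traf2 by 0.66 and 0.84 (SE 0.05 each), and the Fas-associated factor Faf1 by 0.61 and 0.85 (SE 0.06 each). The mean of all Traf6 probe sets gave 0.33 (adjusted p = 0.077) in wild-type cells. Responses differed for 4 of the 15, against 22.8% of all probe sets, a share near the background. Daxx, a Fas-interacting protein also known as a histone chaperone, gave -0.03 in wild-type and 0.40 in knockout cells, a difference of 0.43 (adjusted p = 0.0052). Traf1 averaged 45.1 in untreated wild-type cells, below the array medians of 90.1 to 106, so its fitted rises of 2.04 and 1.08 and their difference of -0.97 (adjusted p = 0.039) depend on the constant, and the difference became -0.54 (adjusted p = 0.074) with 64 added. Map3k14, the NF-kB inducing kinase, and Ikbkb, an IkB kinase subunit, differed by 0.93 (adjusted p = 0.025) and 0.28 (adjusted p = 0.03). The difference of Traf1 was also lost under quantile normalisation (-0.78, adjusted p = 0.073), that of Ikbkb with the mean of all its probe sets (0.05, adjusted p = 0.88), and that of Map3k14 without replicate 3 of untreated knockout cells (0.73, adjusted p = 0.05).

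Of 8 caspases and mitochondrial genes, 4 rose and 2 fell in wild-type and 4 rose and 1 fell in knockout cells. Casp8, the initiator caspase of death receptors and a neighbour of Cflar on chromosome 1, rose by 0.43 (SE 0.04) in wild-type and 0.17 (SE 0.04) in knockout cells, a difference of -0.26 (adjusted p = 0.0047). Bid, which links caspase-8 to mitochondria, rose by 0.42 and 0.14 (SE 0.05 each), a difference of -0.28 (adjusted p = 0.0072). Apaf1, the scaffold of the apoptosome, fell by 0.61 on the log2 scale in wild-type cells and gave -0.04 in the knockout, a difference of 0.56 (adjusted p = 0.00063). Casp6, an effector caspase, changed by -1.10 and -0.74, a difference of 0.35 (adjusted p = 0.018), and Casp2 rose by 0.65 and 0.52 (SE 0.06 each). Diablo, which encodes the IAP antagonist SMAC, rose by 0.34 and 0.28 (SE 0.05 each), and the mean of all its probe sets gave 0.07 (adjusted p = 0.7) in the knockout. The differences of Casp8 and Bid were lost under median centring (-0.17, adjusted p = 0.33, and -0.19, adjusted p = 0.23). The mean of all Casp6 probe sets gave -0.25 (adjusted p = 0.27) and -0.06 (adjusted p = 0.81).

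Of 11 inhibitors and ubiquitin-editing genes, 2 rose and 5 fell in each genotype. Tnfaip3, which encodes the NF-kB inhibitor A20, averaged 1891 and 3712 in wild-type and 2272 and 1730 in knockout cells. It rose by 0.97 (SE 0.08) in the former and changed by -0.39 (SE 0.08, adjusted p = 0.00032) in the latter, a difference of -1.37 (SE 0.11, adjusted p = 5.8e-08). Nfkbia, which encodes the inhibitor IkB alpha, changed the other way, by -0.12 (adjusted p = 0.017) and 0.63, a difference of 0.75 (SE 0.06, adjusted p = 1.8e-08). The caspase inhibitor gene Xiap fell in both genotypes, at -0.78 and -0.91 (SE 0.10 each), and so did Birc2, which encodes cIAP1, at -0.48 and -0.56 (SE 0.09 each). The deubiquitinase gene Cyld and Rbck1, a subunit of a linear ubiquitin ligase, fell in both, with differences of -0.28 (adjusted p = 0.027) and -0.32 (adjusted p = 0.045). Both differences were lost under median centring (-0.18, adjusted p = 0.31, and -0.23, adjusted p = 0.36), and the mean of all Xiap probe sets gave -0.21 (adjusted p = 0.18) and -0.30 (adjusted p = 0.059). That of all Cyld probe sets gave -0.14 (limma adjusted p = 0.16) in wild-type cells and a difference of -0.16 (adjusted p = 0.38).

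Of 18 other receptors of the superfamily measured, 7 passed the filter. In wild-type cells 0 rose and 1 fell, and in the knockout 2 rose and 0 fell by limma. Ltbr, the lymphotoxin beta receptor, changed by -0.93 (SE 0.13) in wild-type and -0.27 (SE 0.13, adjusted p = 0.081) in knockout cells, a difference of 0.66 (SE 0.18, adjusted p = 0.012). Eda2r, a receptor for an ectodysplasin isoform, averaged 69 and 79 in wild-type and 260 and 692 in knockout cells, and it passed the filter through its knockout arrays, so its wild-type change and the difference rest on background signal. Its fitted change was 0.14 (SE 0.16, adjusted p = 0.49) and 1.36 (SE 0.16, adjusted p = 6.8e-07), a difference of 1.22 (SE 0.23, adjusted p = 0.00073). Tnfrsf19 gave 0.19 (SE 0.25) in wild-type cells and rose by 0.70 (SE 0.25, adjusted p = 0.026, or 0.57 and 0.086 without replicate 3 of untreated knockout cells) in the knockout, and the difference of 0.51 did not pass (adjusted p = 0.34).

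Between genotypes, 4 of the 15 adaptors and kinases were higher and 6 lower in the untreated knockout, against 24.3% and 23.3% of all probe sets, and 5 and 5 with MG132, against 25.0% and 27.8%. Ripk3, a kinase of necroptosis, was higher at 0.86 (adjusted p = 7.1e-12) untreated and 0.90 (adjusted p = 3.6e-12) treated, and Traf2 at 0.41 and 0.59. Mlkl was lower at -0.92 and -0.86, and Map3k5, which encodes the kinase ASK1, averaged 231 and 127 in wild-type cells but 32 and 16 in the knockout, at background. Among the 8 caspases and mitochondrial genes 5 were higher and 2 lower untreated, and 5 and 1 treated. Diablo was higher at 0.39 and 0.32, Casp6 at 0.38 and 0.73, and Casp8 was lower at -0.18 and -0.44. Among the 11 inhibitors 4 were higher and 1 lower untreated, and 3 and 3 treated. Birc3, which encodes cIAP2, was higher at 0.77 (adjusted p = 3e-04) and 0.60 (adjusted p = 0.0023), while Tnfaip3 was higher untreated at 0.27 and lower treated at -1.10, and Nfkbia lower untreated at -0.21 and higher treated at 0.54. Among the 7 other receptors 2 were higher and 1 lower untreated, and 3 and 0 treated. These were Eda2r and Tnfrsf19, both below the array medians in wild-type cells on average, with Ltbr higher at 0.60 when treated and Tnfrsf11a lower at -1.34 when untreated. Tnfrsf11a averaged 126 in untreated wild-type but 43.1 in untreated knockout cells, below the array medians, so its difference rests on background signal. With the mean of all probe sets of a gene, the calls of Casp6 at both treatments, Bid, Birc3 and Tnfrsf11a untreated and Diablo treated were lost. The untreated call of Tnfrsf19, at 0.66 (limma adjusted p = 0.038), was lost without the filter (adjusted p = 0.078). It was also lost without replicate 4 of untreated wild-type cells (0.49, adjusted p = 0.14).

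**Figure D4:**
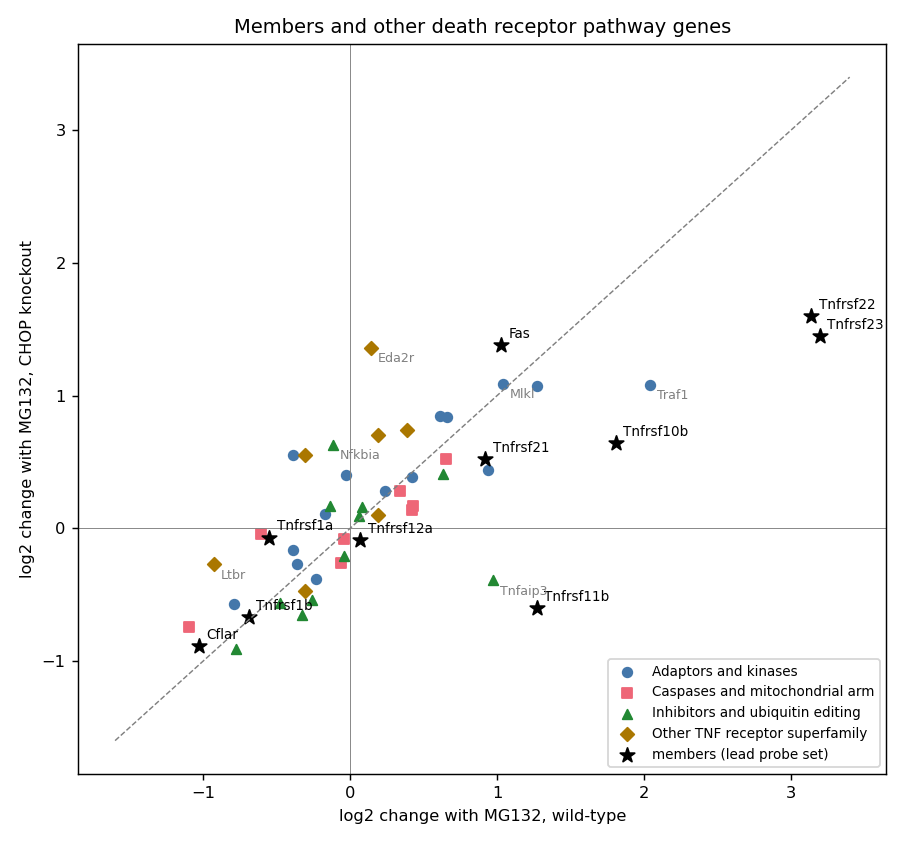
Log2 change with MG132 in knockout (vertical) against wild-type cells (horizontal) for lead probe sets of the members (stars) and tested genes of the adaptor, caspase, inhibitor and other-receptor lists, with a dashed line of equal change. Tnfrsf22, Tnfrsf23, Tnfrsf10b and Tnfaip3 lie below the line, and Eda2r and Nfkbia above it.

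Across the 16 arrays the log2 signals of Tnfrsf22 and Tnfrsf23 correlated at r = 0.98 and those of Tnfrsf10b and Tnfrsf22 at 0.97, given as a description since the arrays share groups and scaling. The genes most like Tnfrsf10b among 11441 others were Gpcpd1 (r = 0.989), Cyb5r1 (0.984) and Zfp37 (0.983). Those most like Tnfrsf22 were Cyb5r1 (0.991), Mapk9 (0.989) and Saraf (0.988), and those most like Tnfrsf23 were Mapk9 (0.977), Rnf121 (0.974) and Serpinb9b (0.974). For Tnfrsf1a they were Shc1 (0.968), Atxn7l3 (0.942) and Dlat (0.939). For Tnfrsf11b they were 2210016F16Rik (0.995), Zfp991 (0.992) and Rps6 (0.992), which follows from a level that separates the genotypes on every array.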

How the data were processed

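RNA of 16 cultures was measured on an Affymetrix mouse 3' expression array. Per the submitters' processing notes the authors used MAS5, and the deposited values are linear signal intensities, 1 per probe set and array, unlogged and without detection calls. Every array had a mean of 1000 once 2% of values were trimmed from either end, which shows a common scaling. The number of arrays limits the precision.

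Of 45101 probe sets, 34945 named 1 gene, 932 several and 9160 none, and 64 were controls. All 10 members matched the gene reference. The 24749 probe sets above the median of their array on at least 4 of 16 arrays were fitted as log2(signal + 16) in limma 3.58.1 (R 4.3.3). The model had a coefficient for each of the 4 groups, all 16 arrays and a mean-variance trend, which left 12 residual degrees of freedom. The 5 contrasts were two-sided, with Benjamini-Hochberg adjustment over all probe sets and a threshold of 0.05. On data simulated for the wild-type contrast with 24749 probe sets, 96% of changes of 2, 80% of changes of 1 or -1 and 54% of changes of 0.5 (log2) were recovered. Only 50 probe sets were changed for each size, a far smaller share than the 56.4% called in wild-type cells. The adjusted threshold is stricter in that setting, so these rates do not measure recovery in the real data.

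The members and lists were chosen with earlier results of these data known. The text names every member and, from each pathway list, up to 4 genes with the smallest adjusted p per contrast, with some others that did not pass given as values. Each list gene is read from the probe set that has the highest mean signal among those naming it alone. Alternatives were other constants, filters, scalings, variance models and features, fits of fewer groups, a replicate block and leaving out arrays. Some genes of the lists were not analysed here. Deviations of same-numbered plates of different groups correlated at -0.072 to 0.13 over 24 pairs, 4 above 0.1. Untreated wild-type with untreated knockout plates gave 0.085, 0.066, 0.13 and 0.126. Untreated with treated knockout plates gave 0.114, 0.039, 0.025 and 0.067, and every other pair of groups held values of both signs. Plates of different number were not compared, so whether the numbers mark a shared batch was not tested.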

Additional observations from a re-analysis of the deposited data

Results flagged for a closer look

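4 of 84 sets of 4 arrays held an array far from the other 3, where chance gives about 1 in 20. These were Tnfrsf11b 1418309_at in replicate 1 of untreated wild-type cells (453) and replicate 2 of untreated knockout cells (80), Tnfrsf22 1422038_a_at in replicate 1 of treated wild-type cells (2547), and Tnfrsf12a 1418571_at in replicate 1 of untreated wild-type cells (11291). Without that knockout array, the knockout change of Tnfrsf11b 1418309_at became 0.75 (adjusted p = 0.039) in place of 0.29.

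The MG132 responses of the genotypes differed, by limma's interaction term (knockout minus wild-type, log2), for 8 member probe sets of the 20 tested, against 22.8% of all probe sets. The differences were -1.17 and -0.62 for Tnfrsf10b, 0.47 for Tnfrsf1a, -1.86 for Tnfrsf11b, -1.54, -1.93 and -1.44 for Tnfrsf22 and -1.75 for Tnfrsf23. The same term was 0.43 for Daxx, 0.93 for Map3k14, 0.28 for Ikbkb, -0.97 for Traf1, 0.56 for Apaf1, -0.26 for Casp8, -0.28 for Bid and 0.35 for Casp6. It was 0.75 for Nfkbia, -1.37 for Tnfaip3, -0.28 for Cyld, -0.32 for Rbck1, 1.22 for Eda2r, 0.66 for Ltbr and -2.81 for the targeted gene Ddit3. The values of Tnfrsf11b, Traf1 and Eda2r rest on background signal in at least 1 group. Calls of Map3k14, Ikbkb, Traf1, Casp8, Bid, Casp6, Cyld and Rbck1 were each lost under at least 1 alternative run.

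Probe set 1442590_at names both Tnfrsf22 and Tnfrsf23 and entered no comparison of members. Its means were 1030 ± 83.1 (SD, n = 4) without and 8922 ± 456 with the inhibitor in wild-type cells, against 776 ± 29.0 and 3225 ± 171 in the knockout, with changes of 3.10 and 2.03.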

How the results depend on the processing

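No called value of a member changed sign under any alternative run. The total counts of member calls per comparison moved by over 1.5 times only where a gene was fitted as 1 feature, which leaves 10 features in place of 20. With 1 probe set per gene they were 9 in the wild-type response, 8 in the knockout response, 5 for the difference, 6 untreated and 8 treated between genotypes. With the mean of all probe sets of a gene they were 9, 6, 5, 7 and 8. Leaving out single arrays gave 17 to 17, 12 to 14, 8 to 9, 10 to 14 and 11 to 14, and the calls higher in the treated knockout were 1 in place of 3 without replicate 2 of treated wild-type or replicate 4 of treated knockout cells. The replicate block gave 17, 13, 8, 10 and 14. The share of all features called was not worked out for these alternative runs, so their counts have no background beside them. With the replicate block the call of Cflar 1425687_at in the knockout was lost (adjusted p = 0.056). In total, counted per value and run, single member probe sets lost 15 and gained 5 calls across the alternatives that kept all arrays. The loss with the replicate block is among the 15. Across the runs that left 1 array out, 24 calls were lost and 6 gained. Without a detection call per probe set, signals below the array median, as for Tnfrsf11b in the knockout and all ligands, give no level.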
